A study of Mus musculus with 6 samples.

Results

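The CD3 chains are the signalling subunits of the T cell receptor. They are encoded by 4 genes in mouse: Cd3d, Cd3e and Cd3g, which lie next to each other on chromosome 9, and Cd247, the zeta chain gene on chromosome 1. Every probe that the deposited table names for these genes, regardless of case, was taken. The 4 genes are among 28902 gene names in that table, and they have 7 of its 45281 probes: 1 for Cd3d, 2 for Cd3e, 1 for Cd3g and 3 for Cd247. The genes were chosen because Cd3d and Cd3g were among the largest differences between the O2ACH iPS line and ES cells in these same arrays. Values of that comparison are therefore given as a description, with no test.

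RNA was measured on 6 Illumina bead arrays, 2 for each of 3 mouse lines of the strain B6, and the series' design text calls the 2 arrays of a line biological replicates. CL25 is an induced pluripotent stem (iPS) line labelled PB-Oct4.2A.cherry (low), whose label also gives the clone as cl2.5 and the sign iPS-/-, and O2ACH iPS is an iPS line labelled PB-Oct4.2A.cherry iPS-/-. Going by their names, both lines carry a construct with Oct4 and cherry, a red fluorescent protein, with 2A named between them. The labels do not name the gene that the -/- sign refers to. ESC are embryonic stem cells, whose label names no construct. All 3 lines shared 1 medium, based on knockout serum replacement. It held the cytokine LIF, 3 µM of CHIR99021, which inhibits GSK3, and 1 µM of PD0325901, which inhibits MEK. With 1 line for each kind, and 1 clone in the case of CL25, what belongs to a line and what belongs to its kind cannot be told apart.

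In a T cell, the delta, epsilon and gamma chains form heterodimers that sit beside the antigen-binding receptor, and the zeta chain joins as a homodimer. Their cytoplasmic tails carry activation motifs (ITAMs) that the kinase Lck phosphorylates and the kinase Zap70 then binds. The complex is assembled in the endoplasmic reticulum, and chains that lack their partners are largely retained there. The chain genes are known mainly for their roles in T cells and are not counted among genes of pluripotent stem cells.

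The labels were checked first. All 10 pluripotency markers (among them Nanog, Sox2, Zfp42 and Esrrb) were detected on both arrays of every line. Pou5f1, which encodes Oct4, had normalised log2 intensities of 8.97 and 8.87 in CL25, 10.96 and 11.03 in O2ACH iPS, and 12.18 and 12.21 in ESC. Pou5f1 passed the test in all 3 comparisons and was highest in ESC and lowest in CL25. Its call in O2ACH iPS against ESC was lost without each array in turn (adjusted p up to 0.193 over 14 alternatives), and that in CL25 against O2ACH iPS was lost without either CL25 array (up to 0.0637). Between 35.88% and 37.55% of probes were detected on an array, at a detection p-value under 0.05, and the 2 arrays of 1 line had r = 0.981 to 0.989 across genes, which are not independent replicates, against 0.956 to 0.981 between arrays of different lines. Of the 12631 genes tested, 2.26% were called higher and 1.91% lower in CL25 against ESC, 1.16% higher and 1.08% lower in CL25 against O2ACH iPS, and 0.428% higher and 0.38% lower in O2ACH iPS against ESC. A call is an adjusted limma p under 0.05, and the 3 comparisons share arrays.

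Cd3g and Cd3d are transcribed away from each other, with start sites 1355 bases apart in RefSeq's GRCm38.p6, and Cd3e starts 27825 bases beyond Cd3d. Their promoter windows, each 250 bases before to 50 bases after the start site, are shown because these 3 genes differed between the lines in the same order. Capitals mark every match, on either strand, to 6 short motifs of factors used in T cells or, for the octamer, of POU factors such as Oct4. The octamer was searched as ATGCAAAT and the E-box, which basic helix-loop-helix factors bind, as CANNTG. The letters AGATAA stood for GATA factors. TCF/LEF factors, which act downstream of Wnt signals, were searched as CTTTGA. The core ETS letters used were ACTTCCT. For RUNX factors the search used TGTGGT.
Cd3g, chr9:44980382-44980681, minus strand: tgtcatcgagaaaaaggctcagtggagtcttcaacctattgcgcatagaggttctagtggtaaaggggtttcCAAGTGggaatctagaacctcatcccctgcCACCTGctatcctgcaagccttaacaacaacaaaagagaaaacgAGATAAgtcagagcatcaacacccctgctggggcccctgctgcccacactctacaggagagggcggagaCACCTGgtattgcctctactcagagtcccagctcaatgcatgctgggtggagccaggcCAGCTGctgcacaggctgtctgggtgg
Cd3d, chr9:44981536-44981835, plus strand: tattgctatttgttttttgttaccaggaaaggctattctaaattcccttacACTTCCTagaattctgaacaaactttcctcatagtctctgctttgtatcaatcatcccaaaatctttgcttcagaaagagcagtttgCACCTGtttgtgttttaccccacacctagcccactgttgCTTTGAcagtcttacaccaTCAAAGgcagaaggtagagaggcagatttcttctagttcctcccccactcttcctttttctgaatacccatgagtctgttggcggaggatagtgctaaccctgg
Cd3e, chr9:45009562-45009861, minus strand: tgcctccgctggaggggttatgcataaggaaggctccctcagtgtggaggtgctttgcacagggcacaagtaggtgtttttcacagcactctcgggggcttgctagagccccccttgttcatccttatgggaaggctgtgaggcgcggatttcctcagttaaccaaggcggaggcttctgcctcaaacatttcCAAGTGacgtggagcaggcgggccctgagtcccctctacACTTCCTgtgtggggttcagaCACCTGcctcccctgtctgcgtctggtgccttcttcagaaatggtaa
The Cd3g window held 4 E-boxes and 1 GATA match, the Cd3d window 1 E-box, 2 TCF/LEF matches and 1 ETS match, and the Cd3e window 2 E-boxes and 1 ETS match. Among all 32851 windows of the table, 72.3% held an E-box, 16% a TCF/LEF match, 11.2% a GATA match and 9.35% an ETS match. No octamer or RUNX match was found in the 3 windows, against 1.74% and 16.8% of all windows with one. No marked matches overlapped each other, and a match describes letters only.

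Cd3d encodes the delta chain, which pairs with epsilon. Its probe (610324) had deposited intensities of 341 and 275 in CL25, 858 and 805 in O2ACH iPS, and 179 and 97.7 in ESC. The 3 lines did not overlap: both O2ACH iPS arrays were highest, both CL25 arrays lay between, and both ESC arrays were lowest. The probe was detected on every CL25 and O2ACH iPS array and on ESC replicate 1, and it was not detected on ESC replicate 2, where a share of 0.0908 of the negative controls was as bright. On the normalised log2 scale it averaged 7.84 ± 0.23 in CL25, 9.65 ± 0.22 in O2ACH iPS and 5.86 ± 1.38 in ESC (SD, n = 2 each). The ESC pair was thus far more spread than the other pairs.

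Cd3g encodes the gamma chain, the other partner of epsilon. Its probe (940747) had intensities of 196 and 161 in CL25, 411 and 403 in O2ACH iPS, and 112 and 81.1 in ESC. The order of lines was that of Cd3d, again with no overlap, and again ESC replicate 1 was detected and ESC replicate 2 was not, with a share of 0.615 of the negative controls as bright. Its normalised log2 means were 6.71 ± 0.24 in CL25, 8.49 ± 0.17 in O2ACH iPS and 5.01 ± 0.76 in ESC.

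Cd3e encodes the epsilon chain, which is needed in both heterodimers. The brighter of its 2 probes (6590239) had intensities of 196 and 185 in CL25, 295 and 282 in O2ACH iPS, and 138 and 135 in ESC. The other probe (6520360) had 159 and 148 in CL25, 207 and 200 in O2ACH iPS, and 121 and 133 in ESC. Both probes were detected on all 6 arrays, and both put the lines in the order of Cd3d and Cd3g with no overlap. The ESC arrays of Cd3e were close to each other, at 6.18 and 5.94 on the log2 scale of the brighter probe, unlike those of Cd3d and Cd3g. The brighter probe averaged 6.88 ± 0.01 in CL25, 7.87 ± 0.21 in O2ACH iPS and 6.06 ± 0.18 in ESC.

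Cd247 encodes the zeta chain, which carries more ITAMs than the other chains. Its 3 probes lay at background, with intensities from 75.5 to 103 over the 6 arrays. The first (1440315) had 93.9 and 102 in CL25, 88.8 and 103 in O2ACH iPS, and 85.9 and 90.7 in ESC, and was detected on CL25 replicate 2 only, where a share of 0.0385 of the negative controls was as bright. The other probes (240280 and 6520241) were not detected on any array. No level of Cd247 was therefore measured in these lines, and none of its probes passed the filter of detection on at least 2 arrays. Of the 7 probes, the 4 of Cd3d, Cd3e and Cd3g passed it. The lowest intensity detected on an array was between 97.2 and 107.

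**Figure D1:**
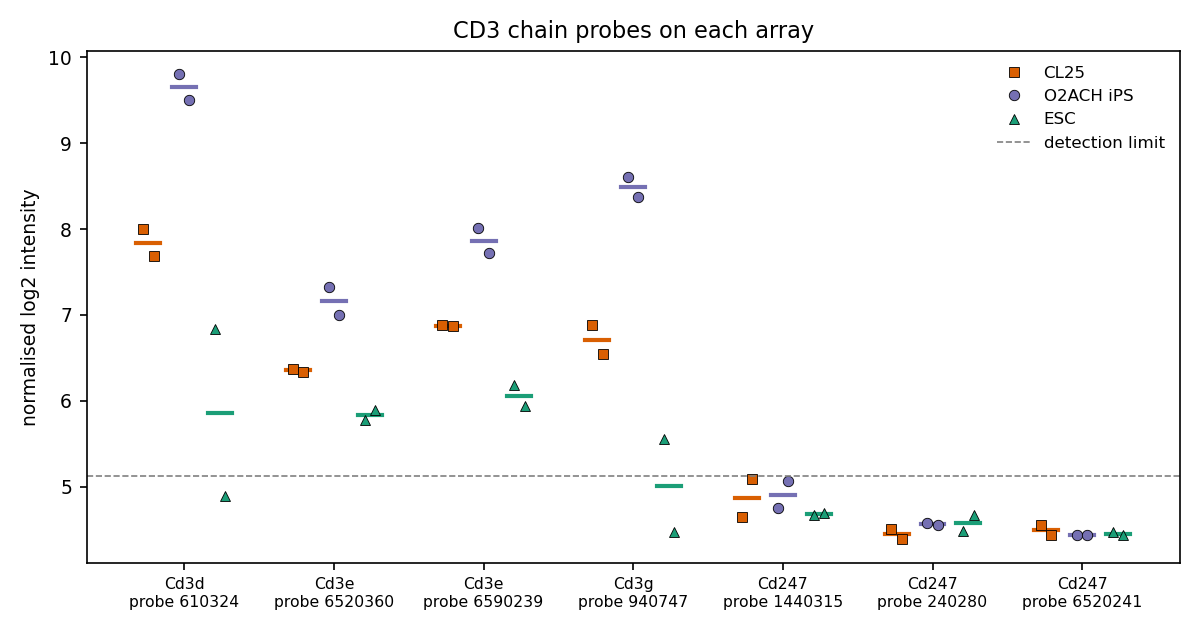
Normalised log2 intensity (vertical axis) of the 7 CD3 chain probes on each of the 6 arrays. Squares are CL25, circles O2ACH iPS and triangles ESC, short bars are means of 2 arrays, and the dashed line is the highest, over the arrays, of the lowest detected values (5.12). For the 4 probes of Cd3d, Cd3e and Cd3g the O2ACH iPS arrays lie above the CL25 arrays and these above the ESC arrays, while the 3 Cd247 probes lie below the dashed line in all lines.

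The O2ACH iPS line had more of the 3 clustered chain transcripts than ESC. The difference of mean log2 intensity was 3.79 ± 0.55 for Cd3d, 3.47 ± 0.35 for Cd3g and 1.81 ± 0.19 for the brighter Cd3e probe (difference ± SE of the limma fit, n = 2 arrays a line). These are 13.81-fold, 11.11-fold and 3.50-fold, on a scale whose added offset of 16 shrinks the folds of dim probes. For Cd3d and Cd3g only 1 of the 2 ESC arrays was detected, so these 2 folds rest in part on a value at background. The other Cd3e probe gave 1.32 ± 0.19. Over all genes, 0.808% were called in either direction in that comparison, and nothing is read from it here because it chose the chain genes. The Cd3d difference was 4.77 without ESC replicate 1 and 2.82 without ESC replicate 2, and that of Cd3g 4.01 and 2.93. In bulk RNA, more cells with a transcript and more transcript per cell cannot be told apart.

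CL25 was compared with ESC, and the chain genes were again higher in CL25 by smaller amounts. The ESC arrays are shared with the comparison that the genes were chosen on, so the test is not independent of that choice. Cd3g rose by 1.70 ± 0.35 (3.25-fold, limma adjusted p = 0.0421), the 1 of 3 tested chain genes that passed, against 2.26% of all genes called higher and 4.16% called in either direction. Cd3d gave 1.98 ± 0.55 (adjusted p = 0.101) and Cd3e 0.82 ± 0.19 (adjusted p = 0.065), with both CL25 arrays above both ESC arrays for each. The second Cd3e probe gave 0.52 ± 0.19. The Cd3g call was kept without ESC replicate 1 (adjusted p = 0.00847) and lost without CL25 replicate 1 (0.213), CL25 replicate 2 (0.179), O2ACH iPS replicate 1 (0.0572), O2ACH iPS replicate 2 (0.054) or ESC replicate 2 (0.0933). It was also lost with no background correction, where the Cd3g change was 0.85 (adjusted p = 0.0581), and with no detection filter (0.139). Without ESC replicate 2 the Cd3d change was 1.00 and that of Cd3g 1.15. Without ESC replicate 1 Cd3d passed, with a change of 2.95 (adjusted p = 0.00427).

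CL25 was then compared with O2ACH iPS, 2 lines that carry the same kind of construct. The chain genes were lower in CL25: the differences were -1.81 ± 0.55 for Cd3d (adjusted p = 0.16), -1.78 ± 0.35 for Cd3g (adjusted p = 0.0516) and -0.99 ± 0.19 for Cd3e (adjusted p = 0.0518). None of the 3 passed the limma test, against 1.08% of all genes called lower and 2.24% called in either direction, while all 3 had an unadjusted p under 0.05 (0.0126, 0.00119 and 0.00121), as did 16.2% of all genes. The O2ACH iPS arrays are part of the comparison that the genes were chosen on, and a choice of genes high on these arrays favours lower values in CL25, so these p-values are no independent support. Both CL25 arrays lay below both O2ACH iPS arrays for each gene, and the second Cd3e probe gave -0.80 ± 0.19. Without ESC replicate 1 all 3 passed (adjusted p from 0.0126 to 0.0491), and likewise without ESC replicate 2 (0.0121 to 0.0476). Those arrays belong to neither line compared. The differences themselves ranged from -1.97 to -1.65 for Cd3d when 1 array was left out.

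**Figure D2:**
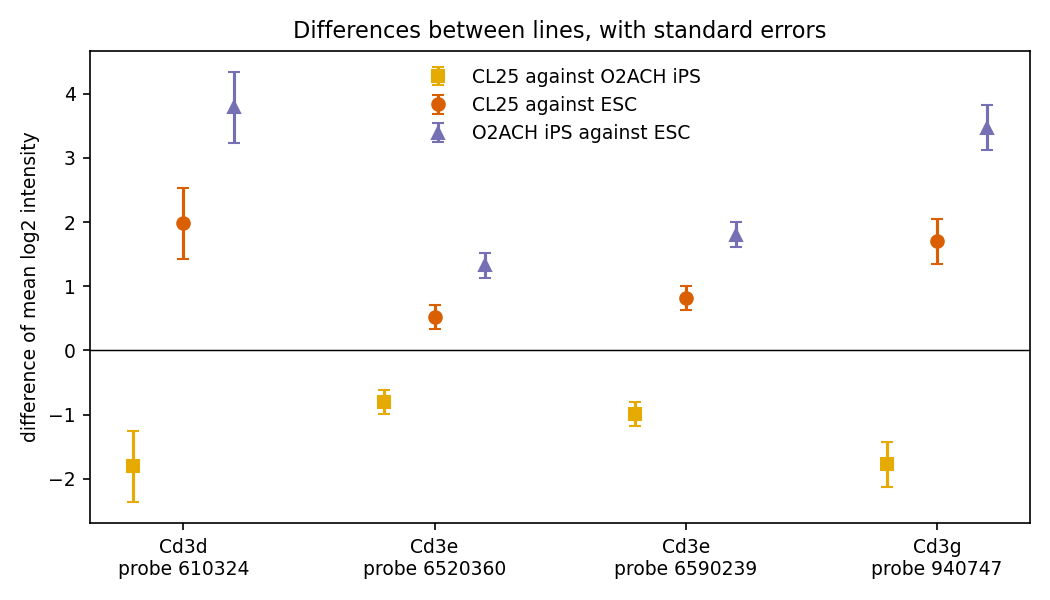
Differences of mean normalised log2 intensity (vertical axis) for the 4 CD3 chain probes that passed the detection filter. Squares are CL25 against O2ACH iPS, circles CL25 against ESC and triangles O2ACH iPS against ESC, and bars are standard errors of the limma fit (n = 2 arrays a line). Differences are below 0 for CL25 against O2ACH iPS and above 0 in both comparisons with ESC, with those of Cd3e nearer 0 than those of Cd3d and Cd3g.

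All 3 tested chain genes thus ran from O2ACH iPS at the top through CL25 to ESC at the bottom with no array overlapping. Of all genes tested, 213 (1.69%) had that order, and nothing is read from it for the chain genes, since the top and bottom lines chose them. Pou5f1 had another order: ESC above O2ACH iPS above CL25.

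The genes around the cluster on chromosome 9 were read next. The 12 protein-coding genes on each side of the cluster, by order in the RefSeq table, held 23 genes with a probe, of which 14 passed the detection filter. None of the 14 was called in any of the 3 comparisons by limma, with 4 at an unadjusted p under 0.05 in CL25 against O2ACH iPS, 5 in CL25 against ESC and 2 in O2ACH iPS against ESC. Over all genes tested, 16.2%, 19.5% and 14.1% had an unadjusted p under 0.05 in these comparisons. Their median change in O2ACH iPS against ESC was -0.05, beside -0.0026 over all genes tested, and in CL25 against ESC it was 0.05, beside -0.02.

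The nearest tested genes on the Cd3g side were Ube4a, a ubiquitin ligase, Atp5l, a subunit of ATP synthase, and Kmt2a, a histone methyltransferase. In O2ACH iPS against ESC they gave 0.01 ± 0.22, 0.02 ± 0.17 and -0.15 ± 0.25. Atp5l was nearly level, at 13.21 and 13.25 in CL25, 13.18 and 13.27 in O2ACH iPS, and 13.18 and 13.22 in ESC. Ube4a, the gene next to Cd3g, lay near background, with 0 of 2 CL25 arrays, 1 of 2 O2ACH iPS arrays and both ESC arrays detected. On the Cd3e side the nearest tested genes were Mpzl2, an adhesion molecule of the immunoglobulin family, and Scn2b and Scn4b, beta subunits of sodium channels. Mpzl2 gave -0.22 ± 0.24 and Scn4b -0.12 ± 0.24 in O2ACH iPS against ESC, with Mpzl2 near background (detected on 0 of 2 CL25, 1 of 2 O2ACH iPS and 1 of 2 ESC arrays). Scn2b had log2 values of 5.08 and 4.75 in CL25, 5.96 and 5.76 in O2ACH iPS, and 4.66 and 5.02 in ESC, and was detected on both O2ACH iPS arrays and on no other. Scn2b thus met the detection filter only through its O2ACH iPS arrays, which favours a higher value there. With the main processing it was at least 1.74-fold higher in O2ACH iPS than in ESC, without passing. The change was 1.02 in the main fit, 0.43 with no background correction and 0.55 with an offset of 50. Its CL25 arrays overlapped those of ESC, unlike those of the CD3 genes, and its adjusted p was 0.104 in O2ACH iPS against ESC and 0.0783 in CL25 against O2ACH iPS. Mpzl3 and Jaml, between Mpzl2 and Scn2b, did not pass the detection filter.

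**Figure D3:**
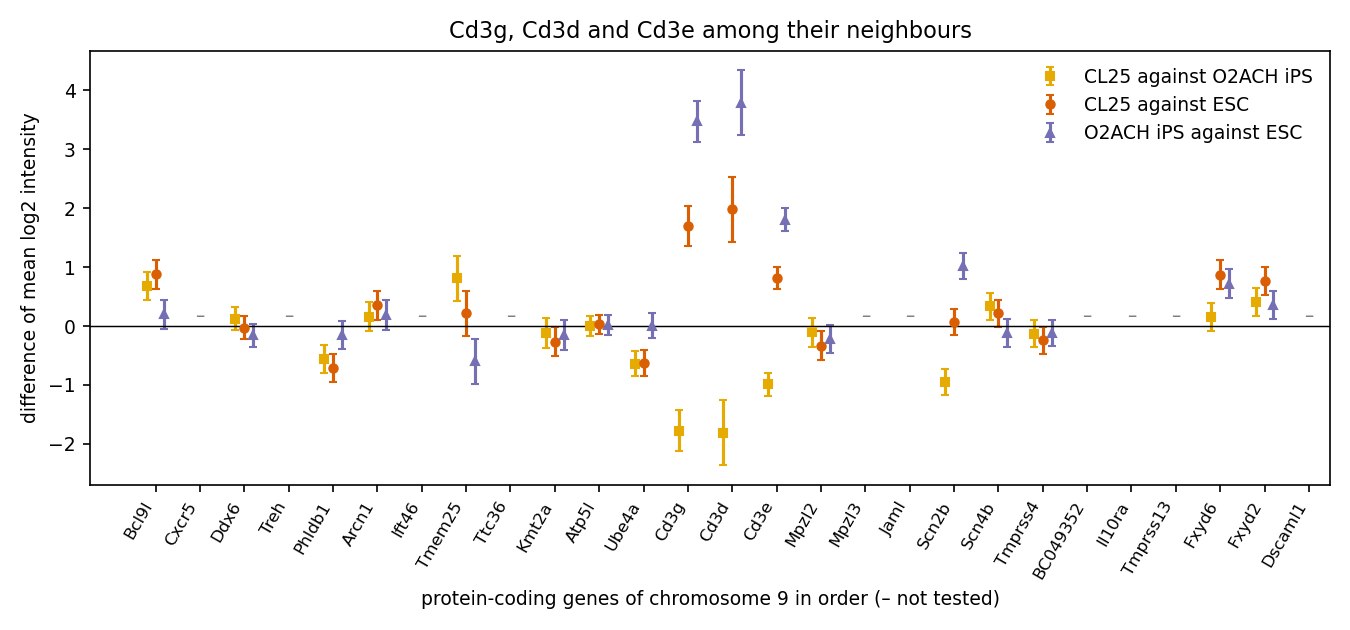
Differences of mean normalised log2 intensity (vertical axis) for Cd3g, Cd3d, Cd3e and the 12 protein-coding genes on each side, in chromosome order, with standard errors. A dash marks a gene that was not tested. Fitted differences are drawn for genes near background too. The tested neighbours other than Scn2b, which was not detected in CL25 or ESC, lie between -0.71 and 0.87 in every comparison, and Cd3g and Cd3d lie outside that range in all 3.

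Around Cd247 on chromosome 1, 11 of 24 neighbours were tested. Rcsd1, whose product regulates actin capping, rose by 2.22 ± 0.44 in CL25 against ESC (limma adjusted p = 0.0376). It was the 1 of 11 called there, against 4.16% of all genes, and none was called in the other comparisons by limma. At an unadjusted p under 0.05 were 5 in CL25 against ESC, 3 in CL25 against O2ACH iPS and 1 in O2ACH iPS against ESC. The shares of all genes were 19.5%, 16.2% and 14.1%. The Rcsd1 call was lost without CL25 replicate 1, CL25 replicate 2 or ESC replicate 2 (adjusted p up to 0.188). Creg1, a lysosomal glycoprotein and the gene next to Cd247, gave 1.66 ± 0.38 in CL25 against ESC without passing (adjusted p = 0.0587), and Pou2f1, an octamer-binding factor of the POU family on its other side, gave -0.40 ± 0.24.

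Other genes of T cells were then followed, in lists written with earlier results of these arrays known. Of 33 genes of the T cell surface and the receptor, 24 had a probe under the name used, and 3 passed the detection filter: Cd8b1, Thy1 and Cd69. None was called in any comparison by limma, and none had an unadjusted p under 0.05. Ptprc, the phosphatase CD45 of nucleated blood cells, Cd4 and Cd8a, the coreceptors, and Trac, the constant region of the receptor's alpha chain, were not detected on any array with any probe. Their intensities were at most 91.8, 95.1, 88.4 and 93.6. Over the 44 probes of the list, summed intensity was 5656 and 5357 in CL25, 4674 and 5153 in O2ACH iPS, and 4862 and 5028 in ESC. Most of these probes were near background, and 1 Cd8b1 probe gave 1036 to 1578 of each sum.

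Cd8b1, the beta chain of the CD8 coreceptor, was bright on 1 of its 3 probes in all lines, with 1574 and 1578 in CL25, 1036 and 1273 in O2ACH iPS, and 1297 and 1211 in ESC. Of its other probes, 1 was detected on a single array and 1 on none. Thy1, found on thymocytes and also on fibroblasts and neurons, was detected on both CL25 arrays, 1 O2ACH iPS array and 1 ESC array and gave 0.19 ± 0.48 in O2ACH iPS against ESC. Names of T cell receptor loci in the table, collected after the values were seen, gave 29 names and 31 probes. For 24 of the 29 no probe was detected on any array, the highest intensity was 113, and of the 4 tested none was called in any comparison by limma (1 at an unadjusted p under 0.05 in CL25 against O2ACH iPS, 0 in the others).

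**Figure D4:**
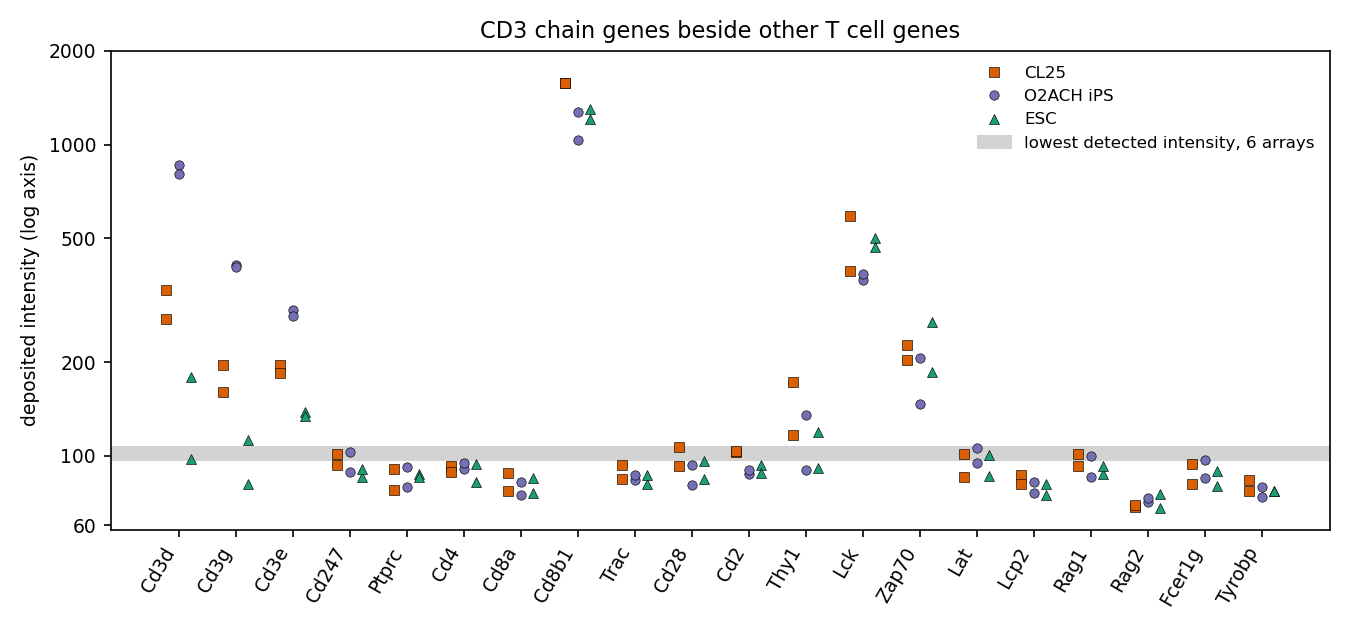
Deposited intensity on a log axis (vertical) of the 4 CD3 chain genes and 16 other genes of T cells and their relatives, each by its brightest probe. Squares are CL25, circles O2ACH iPS and triangles ESC, with 2 arrays a line, and the grey band spans the lowest detected intensities of the 6 arrays (97.2 to 107). Cd3d, Cd3g and Cd3e separate the lines, Cd8b1, Lck and Zap70 are above the band in all lines, and Ptprc, Cd4, Cd8a and Trac stay below it.

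Of 38 genes that signal next to the receptor, 37 had a probe and 17 were tested. Lck, the kinase that phosphorylates the CD3 chains, was detected on all 6 arrays at log2 values of 8.96 and 8.34 in CL25, 8.41 and 8.29 in O2ACH iPS, and 8.77 and 8.53 in ESC. Zap70, the kinase that binds them, was detected on all 6 too and gave -0.43 ± 0.28 in O2ACH iPS against ESC. Neither passed in any comparison. Lat and Lcp2, adaptors downstream of Zap70, were near background, with at most 1 array detected for any of their probes. None of the 17 was called in CL25 against O2ACH iPS or in O2ACH iPS against ESC by limma. In these comparisons 4 and 0 had an unadjusted p under 0.05, beside 16.2% and 14.1% of all genes. The median change in O2ACH iPS against ESC was -0.08. Rasgrp1, an activator of Ras in lymphocytes, gave -1.40 ± 0.42 in CL25 against O2ACH iPS and -1.35 ± 0.42 in CL25 against ESC without passing.

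Of 7 genes of other ITAM-bearing adaptors and the receptors they serve, 6 had a probe and 3 were tested. Fcer1g, the Fc receptor gamma chain that can stand in for zeta, and Tyrobp, the adaptor DAP12, were not detected on any array. Fcgr3, the Fc receptor CD16, had log2 values of 5.09 and 6.12 in CL25, 6.94 and 6.46 in O2ACH iPS, and 4.51 and 4.56 in ESC, the order of lines of the chain genes without overlap. It was not well above background in ESC and was at least 3.12-fold higher in O2ACH iPS (limma adjusted p = 0.044), the 1 of 3 that passed, against 0.808% of all genes. That bound sets the mean of O2ACH iPS against the lowest detected signal of each ESC array. It holds for the main processing only. The call was kept without CL25 replicate 1 or CL25 replicate 2 and lost without each of the other 4 arrays in turn (adjusted p up to 0.25 over 14 alternatives). It was also lost with no background correction (change 1.05, adjusted p = 0.0626), with an offset of 50 (1.28, 0.0621), with no detection filter (0.169) and with a detection p under 0.01 (0.0503). Cd79b, a chain of the B cell receptor complex, gave -0.22 ± 0.27 in that comparison.

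Of 34 transcription factors and recombination genes of the T lineage, 33 had a probe and 19 were tested. In O2ACH iPS against ESC, 1 was called higher and 1 lower, against 0.428% and 0.38% of all genes. Gata3, needed for T cell commitment and also expressed in trophectoderm, had log2 values of 6.11 and 5.59 in CL25, 6.99 and 6.18 in O2ACH iPS, and 4.69 and 4.47 in ESC. It was not well above background in ESC and was at least 2.87-fold higher in O2ACH iPS (limma adjusted p = 0.0402). This bound holds for the main processing only. The CL25 and O2ACH iPS arrays of Gata3 did not overlap. Satb1, a chromatin organiser of thymocytes, fell by 2.17 ± 0.33 (adjusted p = 0.0402), with 6.45 and 6.79 in CL25, 5.40 and 6.18 in O2ACH iPS, and 7.62 and 8.30 in ESC. In CL25 against ESC Sox13, a factor of gamma delta T cells and of other tissues, rose by 1.11 ± 0.22 (limma adjusted p = 0.0412). It was the 1 of 19 called there, against 4.16% of all genes. In CL25 against O2ACH iPS none was called by limma (5 at an unadjusted p under 0.05, as were 16.2% of all genes). Gata3 kept its call without O2ACH iPS replicate 2 and Satb1 without O2ACH iPS replicate 2 or ESC replicate 1. The Gata3 call was also lost with no background correction (change 0.96, adjusted p = 0.0766) and with an offset of 50 (1.18, 0.0717), that of Sox13 with no background correction (0.68, 0.0538), and all 3 with no detection filter (0.0917 to 0.156). The calls of all 3 genes were lost without each other array in turn (adjusted p up to 0.274 over 14 alternatives each). Notch1, Tcf3 and Tcf12, factors also used outside the T lineage, gave -0.16 ± 0.30, 0.04 ± 0.17 and 0.02 ± 0.21 in O2ACH iPS against ESC. Rag1 and Rag2, the recombinase genes, and Runx3 were not detected on any array.

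Markers of other cells were counted beside the chain genes. Of 24 genes of B, NK, myeloid and erythroid cells 6 were tested, and of 14 fibroblast and feeder genes 7. None of either list was called in any comparison by limma. Acta2, the smooth muscle actin of myofibroblasts, had intensities of 86.6 and 86.3 in CL25, 273 and 166 in O2ACH iPS, and 185 and 1037 in ESC. It was brightest on ESC replicate 2, the array on which Cd3d and Cd3g were not detected, and its part in the spread of the chain genes was not tested. The list did not move together on that array. Fn1 and Vim had lower log2 values on ESC replicate 2 (9.50 and 8.73) than on ESC replicate 1 (10.06 and 9.34), as did Pdgfra and S100a4 near background. Twist1 and Col1a2, also near background, were higher on ESC replicate 2. Acta2 was not well above background in CL25, and its brightest probe was at least 9.87-fold lower there than the ESC mean, without passing (limma adjusted p = 0.0554). That bound rests on 1 probe, on the mean of 2 unlike ESC arrays and on the main processing. The change was -3.83 in the main fit, -2.74 with an offset of 50 and -1.61 with the mean of its probes. It was -2.35 without ESC replicate 2 and -5.29 without ESC replicate 1. The limma adjusted p was 0.0459 with median centring in place of quantile normalisation, 0.044 with the replicate number as a block and 0.193 with no detection filter. At an unadjusted p under 0.05 the blood cell list had 0 genes in CL25 against O2ACH iPS, 1 in CL25 against ESC and 1 in O2ACH iPS against ESC, and the fibroblast list had 1, 2 and 0, to be set beside the shares of all genes given above. Summed over the 45 probes of the blood cell list, the deposited intensity was 4838 and 4452 in CL25, 4327 and 4609 in O2ACH iPS, and 4148 and 4273 in ESC. Over the 30 probes of the fibroblast list it was 4370 and 4967 in CL25, 4053 and 4297 in O2ACH iPS, and 4545 and 5155 in ESC.

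The genes whose pattern over the 6 arrays was most like the mean of Cd3d and Cd3g were taken by Pearson's r among the 10228 tested genes with an ordinary gene symbol. They were Itgb5, an integrin subunit (r = 0.989), Cdkn3, a phosphatase of the cell cycle (0.989), Mgmt, which repairs alkylated DNA (0.988), Polr1d, a subunit of RNA polymerases I and III (0.987), and Slc5a6, a vitamin transporter (0.984). Cd3e ranked 14th, with r = 0.977. The likeness is one of shape, not of size: Itgb5 spanned 1.36 on the log2 scale over the arrays, Cdkn3 1.07, Slc5a6 0.97, Polr1d 0.71 and Mgmt 0.57, against 2.08 for Cd3e. The genes with the most opposite pattern were Adcy6, an adenylyl cyclase (r = -0.995), Cul4a, a ubiquitin ligase scaffold (-0.987), and Cldnd1 (-0.985). Adcy6 was not detected on any CL25 or O2ACH iPS array, so that most of its values are at background. With 6 arrays in 3 lines, such values describe these arrays and carry no p.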

How the data were processed

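The RNA was total RNA (RNeasy kit), and the TotalPrep-96 kit made the biotin-labelled target, per the labels' protocols. The array model, its software and its annotation were not given in the sources used here. Each probe has, per the file headers, its mean bead intensity and its detection p-value on each array. The deposited intensity values carried no background subtraction or normalisation (array medians 87.3 to 96.0). A second deposited table, of log2 values with equal quantiles on all arrays, has row names that match no probe of the first, so its rows have no gene names here. It was used for counts of calls only.

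Probe names were brought to current symbols through RefSeq's gene table, used for names and gene order (27760 probes by symbol, 7994 by synonym, 9527 kept). Background was corrected with nec of limma 3.58.1 in R 4.3.3 (offset 16, controls inferred from the detection p-values), and log2 values were quantile normalised. Probes detected (p under 0.05) on at least 2 arrays were kept (18175), and the brightest stood for a gene. One limma model with 3 line means was fitted (3 residual and 4.27 prior degrees of freedom), with Benjamini-Hochberg adjustment over 12631 genes. The number of arrays limits precision. Alternatives changed the background correction, normalisation, detection filter, choice of probe, arrays in the fit and replicate block. The limma fit alone was run on simulated log2 values with known changes. That run did not cover the background correction, normalisation, detection filter or choice of probe.

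The chain genes, lists and tests were chosen with earlier results of these data known. Named genes were the chain genes, list members that passed, the 2 members with the smallest p per list and comparison (given in part), role genes such as Lck, the 3 nearest tested neighbours on each side of the cluster, and the 5 most and 3 least similar genes. Promoter windows are RefSeq's. Motifs, receptor locus names and some further members were chosen after values were seen. No probe sequences were used, so cross-hybridisation between chain genes was not tested. Some results of the list of genes that signal next to the receptor are not reported here.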

Additional observations from a re-analysis of the deposited data

How the results depend on the processing

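In all 14 alternatives each chain gene tested kept its direction in all 3 comparisons. Without background correction the changes were -0.70 for Cd3e (adjusted p = 0.0439) and -1.30 for Cd3g (0.0294) in CL25 against O2ACH iPS, 0.85 for Cd3g in CL25 against ESC (0.0581), and 2.72 for Cd3d, 1.16 for Cd3e and 2.14 for Cd3g in O2ACH iPS against ESC. An offset of 50 gave -0.82 for Cd3e (0.0402) and -1.50 for Cd3g (0.0211) in CL25 against O2ACH iPS, and 3.11, 1.41 and 2.54 for Cd3d, Cd3e and Cd3g in O2ACH iPS against ESC. By construction, less correction and a larger offset shrink the changes of dim probes. With no detection filter, more genes were tested, and 31 were called higher and 27 lower in CL25 against O2ACH iPS, 114 and 77 in CL25 against ESC, and 16 and 8 in O2ACH iPS against ESC, while Cd3g in CL25 against ESC stayed at 1.70 (0.139). The mean of both Cd3e probes gave 1.56 in O2ACH iPS against ESC. Fits on the 4 arrays of 2 lines gave -1.82 for Cd3d (0.013), -0.99 for Cd3e (0.0483) and -1.77 for Cd3g (0.013) in CL25 against O2ACH iPS, 1.72 for Cd3g in CL25 against ESC (0.0591), and 24 higher and 17 lower calls in O2ACH iPS against ESC. The authors' second table gave 97 higher calls in CL25 against O2ACH iPS. The titles number the arrays of each line 1 and 2, and same-numbered deviations correlated at 0.298, 0.183 and 0.323 for the 3 pairs of lines. With 2 numbers and no label tying them to a batch, what same-numbered arrays share beyond the number cannot be told. With the replicate number as a block, calls were 344 and 305, 469 and 442, and 136 and 136 (higher and lower, in the order above). Cd3e (-0.99, limma adjusted p = 0.0265) and Cd3g (-1.78, 0.0139) then passed in CL25 against O2ACH iPS. In CL25 against ESC, Cd3d (1.98, 0.0328), Cd3e (0.82, 0.0382) and Cd3g (1.70, 0.0109) passed. When 1 array was left out, the lone array of a line was assumed to vary like the others. Calls then ranged over 0 to 189 higher and 0 to 205 lower in CL25 against O2ACH iPS, 32 to 301 and 23 to 252 in CL25 against ESC, and 9 to 129 and 3 to 70 in O2ACH iPS against ESC. The 0 calls came without CL25 replicate 2, by limma, where 509 higher and 597 lower genes had an unadjusted p under 0.05. In the same 3 comparisons Cd3d ranged from -1.97 to -1.65, 1.00 to 2.95 and 2.82 to 4.77, Cd3e from -1.14 to -0.85, 0.69 to 0.94 and 1.67 to 1.95, and Cd3g from -1.95 to -1.60, 1.15 to 2.24 and 2.93 to 4.01. Except where a cause is given, the cause of a changed value was not tested. Cd3d and Cd3g were near background in ESC, which limits the size of their folds, and Cd247 was at background in all 3 lines.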

Other observations

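Of the 54 genes called higher in O2ACH iPS against ESC, 20 had both CL25 arrays between the arrays of those lines. The chain genes are on this list of 20 by the comparison they were chosen on, so their place on it tests nothing. Where the CL25 mean lay between the ESC mean (0%) and the O2ACH iPS mean (100%) was listed after the values were seen, as a description. Cd3e lay at 45.2%, Cd3g at 48.9% and Cd3d at 52.3%. These places depend on the ESC arrays: without ESC replicate 1 they were 48.9%, 55.8% and 62.0%, and without ESC replicate 2 they were 41.1%, 39.4% and 35.7%, for Cd3e, Cd3g and Cd3d each time (alternatives chosen after seeing the data). The other 17 lay between 9.19% and 89.1%, with a median of 63.5% and 7 of them under 60%.

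Toward the upper end were Baiap2l1, which shapes actin at membranes (89.1%), Mrps27, a mitochondrial ribosomal protein (88.9%), and Thumpd1, an RNA-binding protein (87.1%). Thumpd1 averaged 8.51 in CL25, 9.12 in O2ACH iPS and 4.41 in ESC on the log2 scale. It was not detected on any ESC array, so its 0% point is background. Toward the lower end were Rftn1, a lipid raft protein (13.9%), and Cited4, a transcriptional coactivator (19.8%). Cited4 averaged 5.69 in CL25, 7.80 in O2ACH iPS and 5.18 in ESC. Rftn1 averaged 5.22 in CL25, 6.16 in O2ACH iPS and 5.07 in ESC. Both ESC means were near the lowest detected log2 values of the ESC arrays (5.04 and 5.08), so these 0% points are near background. Fcgr3 lay at 49.4% and Obox6, an oocyte homeobox gene, at 43.1%. Their ESC means (4.54 and 4.56) were under the lowest detected log2 values of the ESC arrays (5.04 and 5.08), so their 0% points are background too. These genes were picked as examples after their values were seen.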
